A study of Mus musculus with 8 samples.

Results

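The genes described here are the 284 of 24062 genes in the RNA-seq tables that were lower in mESCs given both treatments of the study, knockout of Setdb1 and the inhibitor UNC0642. They were chosen by 4 libraries: a gene needed at least 3 CPM (the count per 1000000 counts of its library) in both WT libraries and a ratio of the combined condition to WT of 0.33 or less in both same-numbered library pairs, with 0.5 added to each CPM. Of the 24062 genes, 10394 reached 3 CPM in both WT libraries, and 1 gene that met the thresholds, Grin1, was left out with all symbols starting Gria, Grik, Grin, Gabr, Pcdh and Hox. All 8 libraries came from 1 line of mouse embryonic stem cells (mESCs), #33-6, a Setdb1 conditional knockout, so every library shares that background and no other line stands beside it. The WT libraries were untreated cells of this line. UNC0642-treated mESCs received 2 µM UNC0642 for 3 days. Setdb1 KO mESCs received 800 nM 4-OHT, the ligand that activates the recombinase, for 5 days. In the combined condition, UNC0642-treated Setdb1 KO mESCs, the labels give 800 nM 4-OHT for 2 days and then 2 µM UNC0642 for 3 days, and the methods count 5 days of 4-OHT. There were 2 libraries per condition. All Setdb1 KO and combined libraries received 4-OHT, and no WT or UNC0642 library did. Loss of Setdb1 therefore cannot be told apart from exposure to 4-OHT and the active recombinase.

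SETDB1 is a histone H3 lysine 9 methyltransferase that represses transposable elements and some genes, and UNC0642 inhibits a different pair of H3K9 methyltransferases, G9a and GLP, which place most H3K9me2. Loss of such marks is best known for derepressing genes, whereas the genes here were lower. A pair of pathways that hold some of them work as follows. In low oxygen, or when the prolyl hydroxylases of the EGLN family are inactive, hypoxia-inducible factors bind a short core sequence and switch on glucose transporters and glycolytic enzymes. When sterols are scarce, SREBP factors switch on the enzymes of cholesterol synthesis.

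Promoters of 3 hypoxia-regulated members are shown for ACGTG, a form of the core bound by hypoxia-inducible factors. Other forms of the core were not searched. ACGTG was found in 9 of the 13 hypoxia and glycolysis members with a promoter entry (69.2%). It was in 45 of 201 falling genes (22.4%) and 2281 of 8396 genes with a WT CPM of 3 or more (27.2%). The hypoxia and glycolysis group was made by known function after the gene names were seen. ACGTG was added to the motifs after seeing the data. Its share in that group is therefore a description, and no hypoxia genes outside the members were searched as a group. Each promoter shown runs from 250 bases before to 50 after the RefSeq start on GRCm38.p6, with ACGTG on either strand in capitals. The Ldha window is chr7:46845554-46845853 on the plus strand, that of Egln3 chr12:54203825-54204124 on the minus strand and that of Ankrd37 chr8:45999801-46000100 on the minus strand.
Ldha: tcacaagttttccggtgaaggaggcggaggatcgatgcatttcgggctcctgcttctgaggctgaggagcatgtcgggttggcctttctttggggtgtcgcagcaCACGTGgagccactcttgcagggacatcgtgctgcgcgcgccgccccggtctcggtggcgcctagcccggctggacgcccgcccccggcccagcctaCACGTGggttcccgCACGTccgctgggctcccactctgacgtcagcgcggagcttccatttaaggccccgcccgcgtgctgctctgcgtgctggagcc
Egln3: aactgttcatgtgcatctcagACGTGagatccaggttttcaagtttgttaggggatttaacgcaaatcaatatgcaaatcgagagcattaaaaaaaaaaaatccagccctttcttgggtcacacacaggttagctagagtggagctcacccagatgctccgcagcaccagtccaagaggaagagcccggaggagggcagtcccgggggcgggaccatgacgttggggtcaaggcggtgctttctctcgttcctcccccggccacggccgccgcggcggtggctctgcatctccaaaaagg
Ankrd37: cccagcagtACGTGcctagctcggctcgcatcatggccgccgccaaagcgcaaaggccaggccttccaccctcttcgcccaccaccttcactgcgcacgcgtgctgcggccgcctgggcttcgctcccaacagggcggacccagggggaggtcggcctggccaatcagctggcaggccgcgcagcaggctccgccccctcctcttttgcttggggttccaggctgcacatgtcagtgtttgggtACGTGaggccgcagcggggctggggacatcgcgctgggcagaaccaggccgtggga

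The Ldha window held 5 matches, of which 4 come from a pair of CACGTG palindromes that read ACGTG on both strands, Ankrd37 held 2 and Egln3 1. Slc16a3, Pfkfb3, P4ha1, Slc2a1, Aldoc and Mgarp were the other members of that group with a match, and Adm, Hif3a, Eno2 and Pkm had none in this window. For the sterol genes Mvd, at chr8:122443373-122443672 on the minus strand, and Nsdhl, at chrX:72918271-72918570 on the plus strand, CCAAT on either strand is in capitals, since CCAAT boxes accompany sterol-response elements in many promoters of this pathway. CCAAT was in 6 of 11 sterol and lipid promoters (54.5%), in 83 of 201 falling genes (41.3%) and in 3376 of 8396 genes with a WT CPM of 3 or more (40.2%).
Mvd: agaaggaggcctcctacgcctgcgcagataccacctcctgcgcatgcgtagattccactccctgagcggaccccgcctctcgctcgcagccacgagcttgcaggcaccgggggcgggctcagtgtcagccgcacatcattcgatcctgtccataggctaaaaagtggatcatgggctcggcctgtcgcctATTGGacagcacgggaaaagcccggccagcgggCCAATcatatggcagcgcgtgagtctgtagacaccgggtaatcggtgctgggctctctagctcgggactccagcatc
Nsdhl: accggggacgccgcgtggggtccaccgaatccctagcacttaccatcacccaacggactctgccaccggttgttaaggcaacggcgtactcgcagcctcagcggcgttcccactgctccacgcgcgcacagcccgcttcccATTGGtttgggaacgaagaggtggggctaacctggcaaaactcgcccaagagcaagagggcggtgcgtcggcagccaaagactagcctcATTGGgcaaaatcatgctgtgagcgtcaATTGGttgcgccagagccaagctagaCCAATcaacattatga

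The other motifs searched on both strands differed little or rested on few promoters. TATAAA was in 16 of 201 promoters of falling genes (7.96%) and in 6.15% of those of genes with a WT CPM of 3 or more. CACGTG, which contains ACGTG, was in 12 (5.97%) against 10.9%, and GGGCGG in 147 (73.1%) against 68.2%. TGACGTCA, the cyclic AMP element, was in 4 (1.99%) against 3.59%. TCACNCCAC, a form of the sterol-response element, was in 2 (0.995%), nearly the same share as the 1.02% of genes with a WT CPM of 3 or more. Over all 27025 RefSeq promoters the shares were 14.2%, 7.24%, 35.9%, 1.85% and 1.22% in that order, with 38.02% for CCAAT and 19.6% for ACGTG. The median promoter had 64.7% GC among the falling genes and 61.7% among genes with a WT CPM of 3 or more, with 21 and 22 CpG dinucleotides. Their longest transcripts had a median GC of 54.1% against 49.4% and a median length of 3995 against 3510 bases. Of the 283 members found in GENCODE M21, 282 were protein-coding, and members lay on 20 chromosomes. These are descriptions of sequence and no test was made of them.

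Setdb1 was itself a member, and its level checks only which libraries received 4-OHT, not which received UNC0642. Its level was 166 and 140.4 CPM in WT, 122 and 104 with UNC0642, 41.7 and 56.5 in Setdb1 KO and 49.5 and 35.3 in the combined condition. All 4 libraries given 4-OHT were below all 4 others, and the counts cover the whole gene, including parts outside the deleted exons. Library totals ran from 11702590 to 26807807 counts. Counts on transposable element subfamilies made up 2.77% to 3.70% of the WT libraries, 3.93% to 5.46% with UNC0642, 9.22% to 11.7% in Setdb1 KO and 11.4% to 17.1% in the combined condition, and they are part of the library total by which CPM is divided. Over all genes tested, the median log2 fold change of the combined condition against WT was -0.23 by library totals and -0.06 by TMM, and the members' median -2.47 and -2.30. Divided by gene counts alone, the thresholds gave 225 genes, 220 of them members, and with TMM library sizes 206, of which 205 were members. The 20 mESC markers, such as Pou5f1 and Sox2, summed to between 5901 and 7738 CPM in WT and between 5960 and 8814 CPM in the combined condition, and none was a member. The 12 fibroblast feeder genes summed to between 9.25 and 32.95 CPM over all libraries, with 5 of them under 1 CPM in every library and 1 of these at 0. The 12 primitive endoderm markers summed to 231 and 638 CPM in WT and to 145 and 329 CPM in the combined condition, and the 12 trophectoderm markers to 79.7 and 105 CPM and to 64.6 and 34.3 CPM, with no member in either list. In Setdb1 KO against UNC0642 the median log2 fold change was -1.57 over the 12 primitive endoderm markers. Over the 10 trophectoderm markers tested it was 1.12. With a replicate block in the fit, 2 of the 12 were lower, where 0.438% of all genes were. Of the 10, 1 was higher, where 254 of 15313 genes were. The part of these markers in the results was not tested. The neural markers summed to between 265 and 397 CPM in WT and between 263 and 372 CPM in the combined condition, and Elavl3 was the only member among them. In bulk libraries, fewer cells of a type and less RNA per cell cannot be told apart.

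In the combined condition, the choice itself placed every member at 0.33 of WT or less. The median log2 fold change was -2.30, against -0.06 over all 15313 genes tested. In edgeR's quasi-likelihood fit, 67 members were past an adjusted p of 0.05 without a replicate block and 274 with it, where the background of genes lower at that threshold was 0.535% and 7.63%. These counts repeat the choice and show nothing further. The members just inside the ratio threshold were Ppfia4 at 0.328, Ldlrad3 at 0.329 and Pkm at 0.3299, and just outside lay Camta1 at 0.3302, Tfrc at 0.3304 and Dusp7 at 0.331.

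Genes with the lowest ratios came from several pathways, and their levels differed widely among the single treatments. Adm, the vasodilator peptide adrenomedullin and a hypoxia target, was at 38.2 and 15.4 CPM in WT, 32.9 and 1.95 with UNC0642, 0.9699 and 15.4 in Setdb1 KO and 1.34 and 0.305 in the combined condition. Stc1, the secreted hormone stanniocalcin, was at 24.3 and 11.8 CPM in WT, 26.8 and 2.51 with UNC0642, 3.47 and 7.07 in Setdb1 KO and 0.0841 and 0.381 in the combined condition. For both genes 1 UNC0642 library and 1 Setdb1 KO library were over 2-fold below their partners, the lower ones being replicate 2 of UNC0642 and replicate 1 of Setdb1 KO. Myh14, a non-muscle myosin heavy chain, was at 21.1 and 25.2 CPM in WT, 5.02 and 10.1 with UNC0642, 5.86 and 11.8 in Setdb1 KO and 1.43 and 1.18 in the combined condition, so each single treatment was below WT in both libraries. Olig1, a neural transcription factor, had 7.69 and 23.4 CPM in WT, 3.65 and 15.7 with UNC0642, 1.31 and 4.14 in Setdb1 KO and 0.336 and 1.64 in the combined condition. Its neighbour Olig2, on the same strand of chromosome 16, had 10.6 and 40.1 CPM in WT, 8.49 and 18.9 with UNC0642, 5.82 and 10.3 in Setdb1 KO and 2.69 and 4.53 in the combined condition. Both Olig genes were higher in replicate 2 than in replicate 1 of every condition, and Olig1 in the Setdb1 KO libraries was below WT in both.

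Others among the 10 lowest were Egln3 and Slc16a3, described with the hypoxia genes, and Ier3, Kbtbd11 and Aoc3. Ier3, an immediate-early gene of ERK signalling, was at 18.03 and 33.3 CPM in WT, 11.7 and 4.07 with UNC0642, 3.84 and 10.4 in Setdb1 KO and 1.43 and 1.64 in the combined condition. Kbtbd11, a Kelch domain gene, was at 7.52 and 10.4 CPM in WT, 7.44 and 3.85 with UNC0642, 3.17 and 4.08 in Setdb1 KO and 0.168 and 0.648 in the combined condition. Aoc3, an amine oxidase, was at 7.69 and 5.89 CPM in WT, 3.34 and 3.24 with UNC0642, 1.49 and 4.99 in Setdb1 KO and 0.252 and 0.1905 in the combined condition. In Ier3, Kbtbd11 and Aoc3 both combined libraries were below every other library. At the other end of the range, 5 members had the highest WT levels: Pkm, Eno1b, Ldha, Slc2a1 and Scd1. The mean WT level of a member ran from 3.26 to 2763 CPM with a median of 16.7 CPM.

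The single treatments ask whether either one alone lowers these genes. Both comparisons share the WT libraries, and WT was part of the choice, which by itself pulls the fold changes below 0. With UNC0642 alone the median log2 fold change of the members was -0.79, against -0.04 over all genes tested. Below 0 were 281 of 284 members and 53.9% of all genes. No member passed an adjusted p of 0.05 in edgeR, with or without the replicate block, and none of the 15313 genes did in the downward direction (background 0.0%). At an unadjusted p under 0.05, 24 members were lower (8.45%, against 0.418% of all genes) without the block and 105 with it (37.0%, against 2.94%). DESeq2 called 0 members without a block (background 0.0%) and 15 with one (5.28%), where 0.125% of all genes fitted were called lower. Both UNC0642 libraries were below both WT libraries for 167 members (58.8%), where 10.2% of all genes tested were.

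With Setdb1 KO alone the median was -1.14, against -0.06 over all genes. Below 0 were 282 of 284 members and 54.3% of all genes. Without the replicate block 1 member fell, Sema3e, which was the only gene of the 15313 called lower (background 0.00653%). Sema3e encodes a secreted guidance cue for axons and vessels. Its level was 32.6 and 32.2 CPM in WT, 16.8 and 23.9 with UNC0642, 3.36 and 3.72 in Setdb1 KO and 2.35 and 4.00 in the combined condition. The Setdb1 KO libraries were close to each other and far below WT, with a log2 fold change of -3.12 ± 0.47 (SE, adjusted p = 0.0177). With the replicate block 42 members fell (14.8%), where the background was 0.522%, or 80 of 15313 genes. None rose. DESeq2 called 18 members without a block (6.34%, against 0.135% of all genes fitted) and 116 with one (40.8%, against 1.46%). Both Setdb1 KO libraries were below both WT libraries for 194 members (68.3%), against 15.9% of all genes.

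The fall in Setdb1 KO differed between its libraries. Relative to the WT library of the same number, the median log2 ratio of the members was -1.62 in replicate 1 and -0.73 in replicate 2, against -0.21 and -0.11 for all genes with a WT CPM of 3 or more. With UNC0642 the medians were -0.83 and -0.65, and in the combined condition, where the choice fixes them, -2.15 and -2.18. Replicate 1 of Setdb1 KO was more than 2-fold below replicate 2 for 164 members (57.7%), and 22.2% of all such genes were. In WT, the same difference held for 47 members (16.5%) and 19.6% of genes. Leaving out Setdb1 KO replicate 1 moved the median of Setdb1 KO against WT to -0.82, and leaving out replicate 2 moved it to -1.72. The plot of ratios by library shows this gap beside the nearly equal UNC0642 libraries.

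**Figure D1:**
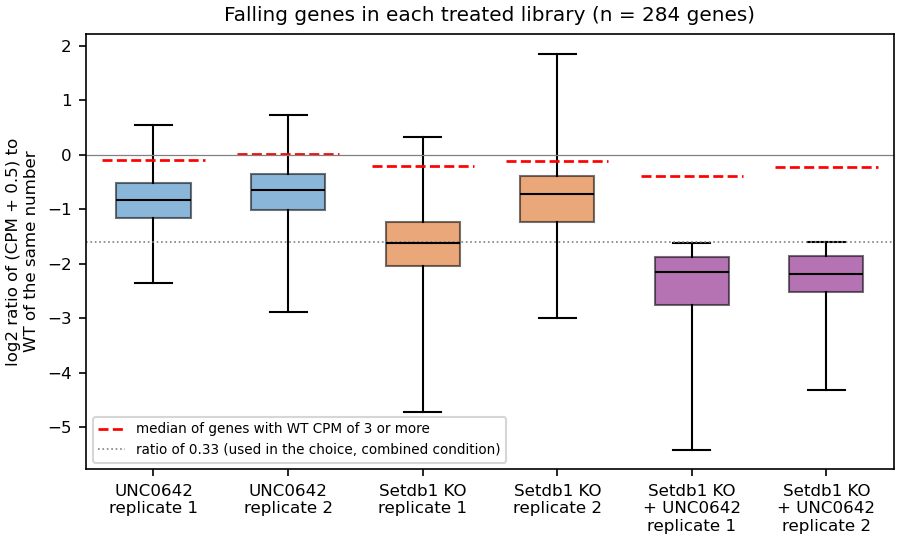
Boxes give the log2 ratio of CPM plus 0.5 in each treated library to the WT library of the same number for the 284 falling genes (median, quartiles, and whiskers to the lowest and highest gene), with red dashes for the median of 10394 genes with a WT CPM of 3 or more. The Setdb1 KO boxes sit at medians of -1.62 and -0.73 and the UNC0642 boxes at -0.83 and -0.65, and the combined libraries lie below the dotted line by choice.

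The comparison that uses none of the 4 libraries of the choice is Setdb1 KO against UNC0642. The median log2 fold change was -0.34, against -0.03 over all genes. Lower in Setdb1 KO were 202 of 284 members and 53.4% of all genes. The median moved to -0.00067 without Setdb1 KO replicate 1 and to -0.91 without replicate 2, so its size rested on those libraries. No member passed an adjusted p of 0.05 without the block (background 0.0131%), and 17 were lower at an unadjusted p under 0.05 (5.99%, against 1.84% of all genes). DESeq2 called 3 without a block (1.06%, against 0.265% of all genes fitted) and 17 with one (5.99%, against 0.945%). With the block 6 members were lower in Setdb1 KO (2.11%), where the background was 0.438%, and none was higher. Both Setdb1 KO libraries were below both UNC0642 libraries for 71 members, against 16.7% of all genes.

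These 6 genes were Sema3e, Sorl1, Fam81a, Sfrp1, Ly75 and Arhgap30. Sfrp1, a secreted Wnt antagonist, was at 112 and 117 CPM in WT, 65.1 and 115 with UNC0642, 14.1 and 27.5 in Setdb1 KO and 8.41 and 34.9 in the combined condition. Its log2 difference between Setdb1 KO and UNC0642 was -2.04 ± 0.39 (SE, adjusted p = 0.0325) with the block. Sorl1, a sorting receptor, was at 56.2 and 112 CPM in WT, 50.1 and 118 with UNC0642, 16.4 and 36.7 in Setdb1 KO and 17.2 and 31.3 in the combined condition, with a log2 difference of -1.55 ± 0.23 (SE, adjusted p = 0.0112). In both genes the UNC0642 libraries overlapped the WT libraries, and the Setdb1 KO libraries were below all of them. Ly75, an endocytic receptor, was at 47.4 and 46.6 CPM in WT, 27.5 and 43.6 with UNC0642, 7.09 and 16.6 in Setdb1 KO and 3.87 and 7.09 in the combined condition, with a log2 difference of -1.55 ± 0.31 (SE, adjusted p = 0.0412). Fam81a was at 24.01 and 32.4 CPM in WT, 19.2 and 28.1 with UNC0642, 6.04 and 7.797 in Setdb1 KO and 5.88 and 7.73 in the combined condition, with a log2 difference of -1.65 ± 0.27 (SE, adjusted p = 0.0176). Arhgap30, a GTPase-activating protein, was at 13.1 and 8.399 CPM in WT, 13.2 and 14.3 with UNC0642, 4.48 and 3.53 in Setdb1 KO and 3.698 and 2.25 in the combined condition, with a log2 difference of -1.70 ± 0.35 (SE, adjusted p = 0.04303). It was the only member of the 284 whose UNC0642 libraries were both above WT and whose Setdb1 KO libraries were both below. For Sema3e the same difference was -2.39 ± 0.31 (SE, adjusted p = 0.00619).

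**Figure D2:**
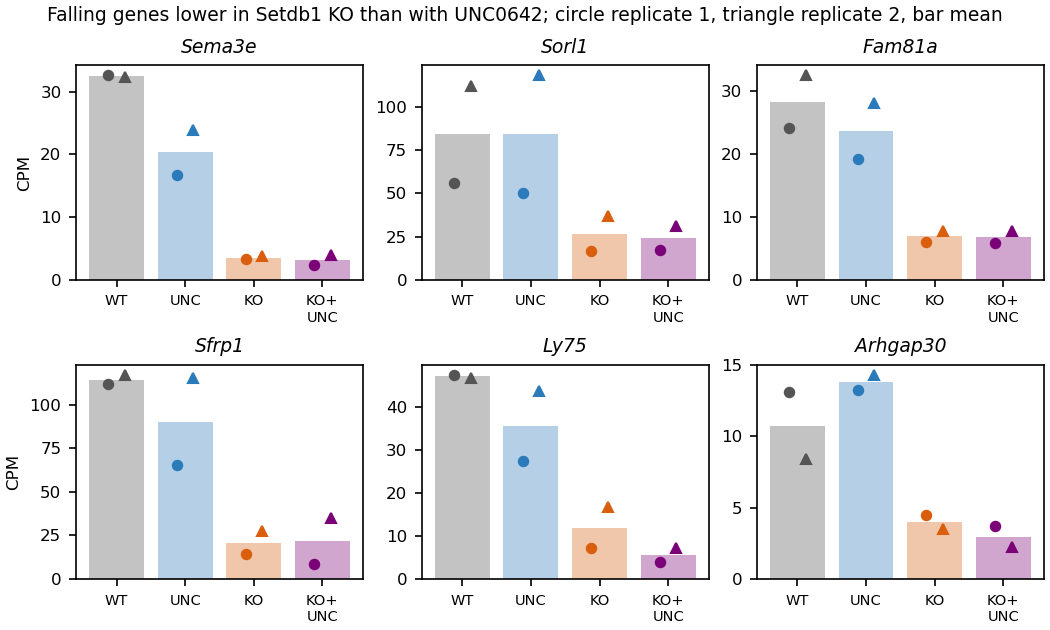
CPM in each library of the 6 falling genes lower in Setdb1 KO than with UNC0642 in the fit with the replicate block, with replicate 1 as circles, replicate 2 as triangles and bars at the mean of 2. In each panel the Setdb1 KO points lie below every WT and UNC0642 point.

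Sorted by what the genes are known to do, 140 members were placed in 11 groups after their names were seen, so the groups are a description and carry no test. Of all 284 members, 279 were below 0 in both single treatments, so such counts do not set a group apart. With the block, 42 members (14.8%) and 0.522% of all genes fell in Setdb1 KO. The largest gap between the Setdb1 KO libraries was in the 18 hypoxia and glycolysis genes. Their median log2 ratio to WT of the same number was -1.94 in replicate 1 and -0.15 in replicate 2, and 16 of 18 were more than 2-fold lower in replicate 1 than in replicate 2. With UNC0642 it was -0.75 and -0.69. In the combined condition it was -3.49 and -2.24. Of this group, 0 members were called in Setdb1 KO, with or without the block.

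**Figure D3:**
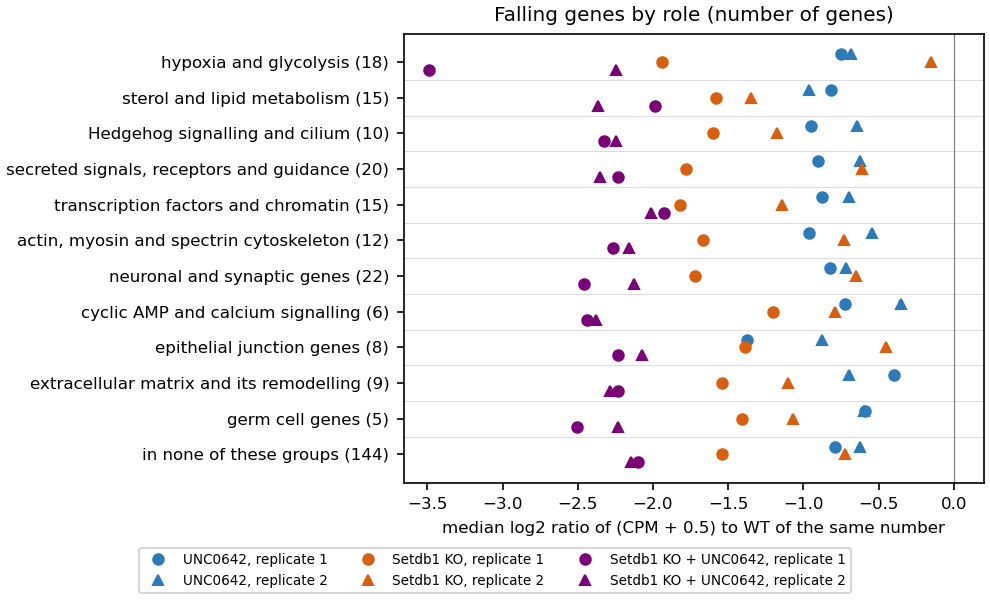
Each point is the median log2 ratio of CPM plus 0.5 to the WT library of the same number over the falling genes of a role group, for replicate 1 (circles) and replicate 2 (triangles) of each treatment. Hypoxia and glycolysis genes show the widest Setdb1 KO gap (-1.94 and -0.15), and the sterol and lipid genes a narrow one (-1.58 and -1.35).

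Egln3, a prolyl hydroxylase that marks hypoxia-inducible factors for degradation and is itself one of their targets, was at 188 and 154 CPM in WT, 167 and 60.3 with UNC0642, 29.8 and 182 in Setdb1 KO and 5.63 and 14.2 in the combined condition. Slc16a3, the lactate exporter MCT4, was at 82.3 and 244 CPM in WT, 45.2 and 78.5 with UNC0642, 24.1 and 168 in Setdb1 KO and 5.55 and 26.1 in the combined condition. In both genes Setdb1 KO replicate 2 lay between the WT libraries and replicate 1 far below them, while the combined condition was the lowest within each replicate number. Ldha, lactate dehydrogenase A, whose promoter held 5 ACGTG matches, was at 1159 and 1133 CPM in WT, 718 and 711 with UNC0642, 321 and 919.7 in Setdb1 KO and 131 and 243 in the combined condition. The glucose transporter gene Slc2a1 was at 566 and 1349.7 CPM in WT, 556 and 625 with UNC0642, 276 and 1193 in Setdb1 KO and 148 and 381 in the combined condition. For Slc2a1 the UNC0642 and Setdb1 KO libraries overlapped WT, and the combined libraries did not. Pkm, pyruvate kinase, was the most abundant member at 2748 and 2778 CPM in WT, 1598 and 2322 with UNC0642, 960.3 and 2376 in Setdb1 KO and 812 and 916 in the combined condition. P4ha1, a collagen prolyl hydroxylase, had 195 and 91.6 CPM in WT, 100.5 and 65.8 with UNC0642, 32.8 and 113 in Setdb1 KO and 17.7 and 26.8 in the combined condition. Bhlhe40, a hypoxia-induced repressor, had 174 and 121 CPM in WT, 91.7 and 125 with UNC0642, 23.1 and 111 in Setdb1 KO and 14.4 and 21.98 in the combined condition. In P4ha1 and Bhlhe40 both combined libraries were below every other library.

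Other members of the group were uneven in the single treatments. The glycolytic enzyme genes Eno2 and Aldoc, neuronal forms of enolase and aldolase, were at 27.2 and 9.16 and at 44.3 and 28.9 CPM in WT and at 1.68 and 34.5 and at 5.71 and 46.96 CPM in Setdb1 KO. Both were therefore above WT in Setdb1 KO replicate 2 and below it in replicate 1. Ankrd37 was at 20.9 and 18.9 CPM in WT, 17.6 and 9.86 with UNC0642, 2.91 and 11.3 in Setdb1 KO and 1.85 and 3.20 in the combined condition. Pfkfb3, which makes the activator of phosphofructokinase, was at 13.1 and 19.6 CPM in WT, 9.95 and 17.04 with UNC0642, 9.14 and 11.1 in Setdb1 KO and 3.03 and 3.66 in the combined condition. Ndrg1 was at 70.8 and 37.1 CPM in WT, 97.8 and 44.6 with UNC0642, 23.5 and 31.9 in Setdb1 KO and 7.901 and 11.01 in the combined condition, and was among the 3 members with a positive log2 fold change for UNC0642 (0.42). Ndufa4l2, a mitochondrial hypoxia target, was at 3.096 and 25.3 CPM in Setdb1 KO against 13.5 and 11.8 CPM in WT. Eno1b is a near copy of Eno1, and how their reads were divided is uncertain: Eno1b was at 958 and 1472 CPM in WT and 304 and 438 in the combined condition, and Eno1 at 730.3 and 1082 CPM in WT and 242 and 324 in the combined condition.

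Of a list of 28 tested glycolysis and hypoxia genes, 10 were members. In the combined condition 3 of 28 were called lower without the block and 17 with it, counts that include members chosen on those libraries, and none higher. Among the 18 that were no members, 8 were called lower with the block, where 7.63% of all genes were. The median log2 fold change of the 18 was -1.20. The glycolytic enzymes Pfkl, Tpi1, Hk1 and Eno1 were among them, at log2 fold changes of -1.67, -1.46, -1.36 and -1.47. Eno1 may share reads with the member Eno1b. The list was chosen with earlier results of these data known, and the libraries are those of the choice. Its counts in the combined condition are therefore a description. The list median was -0.57 with UNC0642 and -0.51 in Setdb1 KO, and no gene of it was called in either, with or without the block.

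Of the 11 groups, the sterol and lipid genes had the smallest gap between the Setdb1 KO libraries. In Setdb1 KO their median log2 ratios were -1.58 and -1.35, with UNC0642 -0.81 and -0.96, and in the combined condition -1.98 and -2.36. All 15 were below 0 in both single treatments, as were 279 of 284 members. With the block 9 of 15 fell in Setdb1 KO, where 42 of 284 members and 0.522% of all genes did. Mvd, the mevalonate decarboxylase whose promoter is shown above, was at 38.1 and 108 CPM in WT, 19.1 and 44.2 with UNC0642, 12.5 and 29.4 in Setdb1 KO and 9.08 and 20.1 in the combined condition. Its log2 fold change in Setdb1 KO was -1.68 ± 0.26 (SE, adjusted p = 0.00823) with the block. Lss, lanosterol synthase, was at 86.8 and 116 CPM in WT, 46.4 and 55.97 with UNC0642, 28.2 and 38.7 in Setdb1 KO and 21.9 and 21.9 in the combined condition, with -1.53 ± 0.25 (SE, adjusted p = 0.0105). In Lss every treated library was below both WT libraries, the UNC0642 pair next below WT, the Setdb1 KO pair under it and the combined pair lowest. Dhcr7, the last enzyme of cholesterol synthesis, was at 113 and 140.1 CPM in WT, 57.3 and 71.5 with UNC0642, 28.6 and 53.2 in Setdb1 KO and 25.05 and 21.9 in the combined condition, with -1.59 ± 0.29 (SE, adjusted p = 0.0199). The same order of the pairs held in Dhcr7 and in Fdps, farnesyl diphosphate synthase, which was at 257 and 243 CPM in WT, 152 and 137 with UNC0642, 81.4 and 101 in Setdb1 KO and 70.1 and 52.3 in the combined condition, with -1.38 ± 0.25 (SE, adjusted p = 0.0193). Lss overlaps 4930483K19Rik, another member on the opposite strand, and reads of the overlap may be divided between them.

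Nsdhl, a sterol dehydrogenase, was at 77.3 and 61.7 CPM in WT, 47.04 and 28.7 with UNC0642, 29.4 and 21.99 in Setdb1 KO and 19.2 and 15.7 in the combined condition, with a log2 fold change of -1.37 ± 0.25 (SE, adjusted p = 0.01904) in Setdb1 KO with the block. Stard4, a sterol carrier, and Scd1 and Fads2, which desaturate fatty acids, fell with the block at log2 fold changes of -1.34, -1.82 and -1.44. Pcyt1b, of phosphatidylcholine synthesis, also fell (-1.58). Pmvk, phosphomevalonate kinase, stood at -1.10 ± 0.26 (SE, adjusted p = 0.0542), and did not pass the threshold. Scd1 was at 487 and 216 CPM in WT, 199 and 107 with UNC0642, 137 and 56.04 in Setdb1 KO and 71.9 and 14.7 in the combined condition. Its WT libraries differed by more than 2-fold, and within each replicate number the order was WT, UNC0642, Setdb1 KO and the combined condition. The plot of 8 genes sets 4 hypoxia genes above 4 sterol genes.

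**Figure D4:**
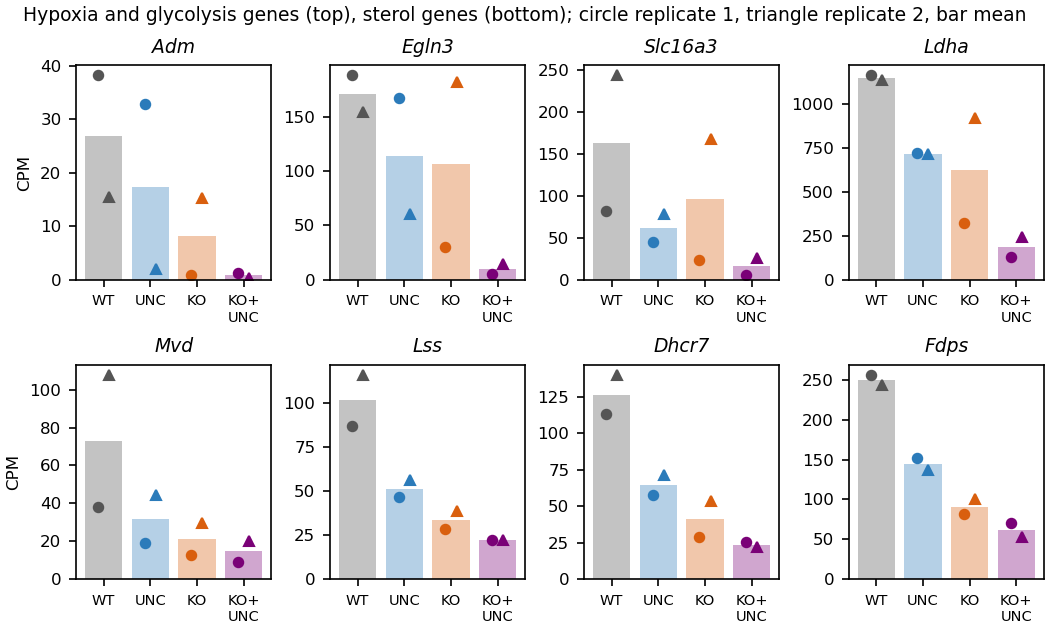
CPM in each library for 4 hypoxia and glycolysis genes (top) and 4 sterol genes (bottom), with replicate 1 as circles, replicate 2 as triangles and bars at the mean of 2. The Setdb1 KO replicates lie apart for Egln3 (29.8 and 182 CPM) and closer for Lss (28.2 and 38.7 CPM).

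Of 24 tested cholesterol biosynthesis genes, 7 were members, among them Pmvk, Mvd, Fdps, Lss, Nsdhl and Dhcr7. In Setdb1 KO no gene of the list passed without the block. With it 9 fell and 1 rose, where 80 of all 15313 genes tested fell (0.522%) and 429 rose. Of the 9, 4 were no members, among them Sc5d (-1.30), Acat2 (-1.24) and Msmo1 (-1.11). The gene that rose was Idi1, isopentenyl diphosphate isomerase (1.66). In the combined condition 4 of the 24 fell without the block, where 0.535% of all genes did. With the block 17 fell and 1 rose, where 7.63% of all genes fell. These counts include members chosen on those libraries, and 10 of the 17 were no members. This list too was chosen with earlier results of these data known, so its counts are a description. The list median was -0.73 with UNC0642, -0.90 in Setdb1 KO and -1.31 in the combined condition, and with UNC0642 no gene passed in edgeR.

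Of the Hedgehog and cilium genes, all 10 were below 0 in both single treatments. Gli1, the transcription factor and readout of Hedgehog signalling, was at 4.87 and 23.7 CPM in WT, 2.33 and 13.1 with UNC0642, 1.57 and 5.54 in Setdb1 KO and 1.18 and 6.17 in the combined condition. It fell in Setdb1 KO with the block (-1.80 ± 0.36 SE, adjusted p = 0.0271), and replicate 2 was the higher library in every condition. Ptch1, the Hedgehog receptor and itself a target, was at 93.9 and 102 CPM in WT, 46.5 and 82.7 with UNC0642, 15.4 and 60.6 in Setdb1 KO and 15.5 and 27.7 in the combined condition. In Ptch1 all Setdb1 KO and combined libraries were below WT, with replicate 1 of Setdb1 KO as low as replicate 1 of the combined condition. The cilium genes Dzip1l and Ninl also fell in Setdb1 KO with the block (-1.96 and -1.28), whereas Cep131 stood at -1.17 ± 0.34 (SE, adjusted p = 0.105). Jag2, a Notch ligand, was at 12.4 and 18.5 CPM in WT, 4.66 and 9.21 with UNC0642, 2.83 and 11.8 in Setdb1 KO and 1.34 and 2.86 in the combined condition, and Mfng, which modifies Notch receptors, at 4.96 and 10.5 CPM in WT and 0.672 and 1.68 in the combined condition. Of 22 Notch and Hedgehog genes tested, 4 were members. With the block, 1 of the 22, the member Gli1, fell in Setdb1 KO. Of the 18 that were no members, 1 fell and 0 rose in the combined condition with the block, where 7.63% of all genes fell.

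Among 20 genes for secreted signals, receptors and guidance, all were below 0 in both single treatments, as were 279 of 284 members. With the block 2, Sema3e and Sfrp1, fell in Setdb1 KO, where 42 of 284 members and 0.522% of all genes did. Smad6, an inhibitor of BMP signalling, was at 5.298 and 6.93 CPM in WT, 2.07 and 2.51 with UNC0642, 1.83 and 1.096 in Setdb1 KO and 0.168 and 0.1905 in the combined condition. Bmp7, a BMP ligand, was at 7.52 and 8.52 CPM in WT, 2.64 and 9.13 with UNC0642, 1.72 and 8.35 in Setdb1 KO and 1.01 and 2.17 in the combined condition, so that replicate 2 of UNC0642 was above both WT libraries, replicate 2 of Setdb1 KO lay between them and replicate 1 of each was below. The guidance genes Sema4a, Sema4c and Sema4f and the semaphorin receptor gene Plxnd1 completed the 5 members among 42 guidance genes tested, at mean WT levels of 9.76, 9.202, 7.03 and 5.86 CPM. Of the 37 that were no members, 5 fell and 4 rose in the combined condition with the block, where 7.63% of all genes fell. Of 19 Wnt targets and feedback genes, the members were Sfrp1, Nkd2, an inhibitor of Dishevelled, and Ccnd1, cyclin D1. Ccnd1 was at 41.96 and 135 CPM in WT, 61.8 and 63.8 with UNC0642, 45.4 and 16.4 in Setdb1 KO and 10.5 and 16.95 in the combined condition, with UNC0642 between the WT libraries. Grb7, an adaptor of receptor tyrosine kinases, and Igfbp4, which binds insulin-like growth factors, were at -2.10 and -2.45 in log2 fold change in the combined condition. Pdgfrb, a growth factor receptor that also counts as a fibroblast marker, was at 5.73 and 5.29 CPM in WT and 0.925 and 0.571 in the combined condition.

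Transcription factor and chromatin genes numbered 15, and 4 of them, Setdb1, Olig1, Zfp341 and Esx1, fell in Setdb1 KO with the block. The shares that fell there were 14.8% of all members and 0.522% of all genes. Esx1, an X-linked homeobox gene, was at 5.21 and 4.78 CPM in WT, 1.06 and 1.47 with UNC0642, 1.12 and 0.365 in Setdb1 KO and 0.841 and 0.648 in the combined condition. Here both single treatments were as low as the combined condition or nearly so. Chd3, a chromatin remodeller, was at 51.5 and 76.2 CPM in WT, 22.8 and 41.0 with UNC0642, 31.4 and 34.3 in Setdb1 KO and 13.2 and 9.41 in the combined condition, and Bahcc1 at 53.7 and 116 CPM in WT, 27.9 and 51.6 with UNC0642, 10.7 and 35.2 in Setdb1 KO and 15.97 and 7.39 in the combined condition. Zfp395 stood at -0.75 ± 0.32 (SE, adjusted p = 0.262) in Setdb1 KO with the block. Of 7 genes in the list of H3K9 methyltransferases and Hprt, Setdb1 was the only member.

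In the cytoskeleton group of 12, Myo5c, an unconventional myosin, and Nexn, an actin-binding protein, fell in Setdb1 KO with the block (-1.74 and -1.56). Myh10, non-muscle myosin IIB, was at 214 and 134 CPM in WT, 139.7 and 125 with UNC0642, 94.97 and 82.8 in Setdb1 KO and 62.95 and 34.7 in the combined condition. Its libraries fell in the order WT, UNC0642, Setdb1 KO and the combined condition within each number. Epb4.1, protein 4.1 of the membrane skeleton, stood at -0.93 ± 0.29 (SE, adjusted p = 0.128) in Setdb1 KO with the block, Smtnl2 at -1.28 ± 0.34 (SE, adjusted p = 0.0795) and Wasf3, an activator of actin branching, at -1.11 ± 0.30 (SE, adjusted p = 0.0875). Myh7b was at 5.298 and 7.24 CPM in WT and 0.168 and 0.6095 in the combined condition. Of 26 class II myosin and actomyosin genes tested, Myh14, Myh10 and Myh7b were the members. Of the 23 others, 1 fell and 1 rose in the combined condition with the block, where 7.63% of all genes fell.

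The 22 neuronal and synaptic genes had median log2 ratios of -1.72 and -0.65 in the Setdb1 KO libraries, and 17 of 22 were more than 2-fold lower in replicate 1 than in replicate 2. Dnajc6, the neuronal clathrin-uncoating factor auxilin, fell with the block at 44.7 and 70.8 CPM in WT, 37.9 and 44.6 with UNC0642, 18.4 and 14.3 in Setdb1 KO and 4.45 and 10.6 in the combined condition, and Scn3a, a sodium channel gene, fell as well (-2.39 ± 0.45 SE, adjusted p = 0.0217). Dnajc6 was low in both Setdb1 KO libraries. Unc13b and Syt7, of vesicle priming and calcium sensing, stood in Setdb1 KO with the block at -0.60 ± 0.31 (SE, adjusted p = 0.364) and -0.95 ± 0.35 (SE, adjusted p = 0.2001). Kcnk1, a potassium channel gene, had -2.78 and Elavl3, a neuronal RNA-binding protein gene, -1.85 in log2 fold change in the combined condition. Of 39 synaptic genes tested, 2 were members and none was called in Setdb1 KO. Of the 37 that were no members, 7 fell and 1 rose in the combined condition with the block, where 7.63% of all genes fell. Hapln4 and Ncan, both of the perineuronal matrix, lie next to each other on chromosome 8 and were at 10.9 and 12.8 and at 11.02 and 8.72 CPM in WT.

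Among 6 genes of cyclic AMP and calcium signalling, Pde4a, a phosphodiesterase that degrades cyclic AMP, was at 21.8 and 29.8 CPM in WT, 7.75 and 12.2 with UNC0642, 7.57 and 12.6 in Setdb1 KO and 1.93 and 2.40 in the combined condition. All treated libraries of Pde4a were below WT and those of the combined condition lowest, and it fell in Setdb1 KO with the block (-1.30 ± 0.29 SE, adjusted p = 0.0453). Prkar2a, a regulatory subunit of protein kinase A, was at 98.95 and 108 CPM in WT, 82.8 and 85.4 with UNC0642, 53.04 and 43.4 in Setdb1 KO and 20.8 and 18.7 in the combined condition. It did not pass the threshold in Setdb1 KO (-1.04 ± 0.24 SE, adjusted p = 0.0508). Itpr1, a calcium release channel, was at 111 and 82.8 CPM in WT, 64.7 and 64.1 with UNC0642, 21.1 and 48.5 in Setdb1 KO and 29.7 and 17.9 in the combined condition, and in its case Setdb1 KO replicate 1 was below the first combined library. Pde9a was at 5.298 and 5.37 CPM in WT and 0.0841 and 0.724 in the combined condition, and Arrb1, an arrestin, at 23.8 and 15.4 CPM in WT and 3.36 and 1.45 in the combined condition. Of 16 phosphodiesterase genes tested, 2 were members, and 1 of the 16, the member Pde4a, fell in Setdb1 KO with the block. Of the 14 that were no members, 1 fell in the combined condition with the block, where 7.63% of all genes fell. Of 16 adenylyl cyclase and protein kinase A genes, 1 was a member, and of the 15 others 1 fell and 1 rose there.

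The 8 epithelial junction genes were the only role group with a positive median log2 fold change of Setdb1 KO against UNC0642. It was 0.26, and 3 of 8 were lower in Setdb1 KO. In replicate 1 their median log2 ratios to WT were nearly equal, at -1.39 in Setdb1 KO and -1.38 with UNC0642. In replicate 2 they were -0.45 and -0.88. Setdb1 KO was also above UNC0642 in replicate 2 in the hypoxia (-0.15 and -0.69), neuronal (-0.65 and -0.72) and secreted signal (-0.61 and -0.62) groups. Cldn6, a tight junction claudin, was at 16.7 and 27.5 CPM in WT, 5.24 and 12.9 with UNC0642, 8.62 and 20.3 in Setdb1 KO and 3.61 and 6.74 in the combined condition. Cldn7 and Tjp3, also of tight junctions, and Krt19, a keratin, were at 4.36 and 6.81, 12.3 and 23.8 and 5.64 and 8.72 CPM in WT, and none of the 8 was called in Setdb1 KO. The 9 matrix genes had Nid1, a basement membrane linker, at 139 and 162 CPM in WT, 106 and 122 with UNC0642, 47.5 and 75.1 in Setdb1 KO and 25.5 and 24.7 in the combined condition. Nid1 fell in Setdb1 KO with the block (-1.24 ± 0.25 SE, adjusted p = 0.0279), as did Vwf (-1.49) and Sh3pxd2a, a scaffold of invadopodia (-1.55). Itga9, an integrin subunit, was at 7.01 and 23.05 CPM in WT and 1.77 and 5.105 in the combined condition. Of 31 epithelial junction genes tested, 4 were members. Of the 27 others 2 fell and 3 rose in the combined condition with the block, where 7.63% of all genes fell and 1239 of 15313 rose. Gstm1, a glutathione transferase, was the member among 14 Nrf2 and metallothionein genes and fell in Setdb1 KO with the block (-1.79 ± 0.30 SE, adjusted p = 0.01301).

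Of the 5 germ cell genes, Clgn, a testis chaperone, fell in Setdb1 KO with the block (-1.52 ± 0.32 SE, adjusted p = 0.0364), and Rec8, the meiotic cohesin, was at 25.9 and 21.3 CPM in WT, 7.53 and 14.2 with UNC0642, 6.57 and 16.9 in Setdb1 KO and 2.44 and 3.505 in the combined condition. The remaining 144 members had no such group. Their mean WT level ran from 3.26 to 234 CPM, and 143 of them were below 0 with UNC0642 and 143 in Setdb1 KO. Their median log2 fold changes were -0.78 with UNC0642 and -1.13 in Setdb1 KO. With the block 15 of them fell in Setdb1 KO, where 42 of 284 members and 0.522% of all genes did. Across the 26 gene lists used, 51 members were found in 19 lists. The lists with no member were those of mESC, primitive endoderm, trophectoderm and primed epiblast markers, ephrins and Eph receptors, amino acid stress genes and p53 targets. Of 20 p53 targets, 0 fell and 9 rose in the combined condition with the block, where 1168 of 15313 genes fell and 1239 rose. Without the block 1 of the 20 rose.

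The levels in the combined condition can be set beside those of the single treatments as a description, since the choice used the combined libraries. Of 284 members, 277 were lower in the combined condition than in both single treatments by the fitted values, with medians of -1.18 against Setdb1 KO and -1.54 against UNC0642. Over all genes tested the medians were -0.02 and -0.05, with 52.2% and 54.2% of genes below 0. The sum of the log2 fold changes of the single treatments left a further median of -0.37 in the combined condition, and 217 of 284 members lay below that sum. Choosing genes with low combined values by itself pushes members below the single treatments and below that sum. The share of all genes below the sum was not computed, so these counts do not show a more than additive effect. In the sterol and lipid genes the median against Setdb1 KO was -0.56, the smallest of the 11 groups, and in the hypoxia and glycolysis genes it was -1.77, the largest. These orders were not tested.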

How the data were processed

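Poly(A) RNA of 8 mESC libraries, 4 conditions with 2 biological replicates each, had been sequenced as read pairs. The authors trimmed the reads with Trim Galore 0.3.7, mapped them to GRCm38 with TopHat and counted them with TEtranscripts, giving the deposited counts, which are raw and cover genes as well as transposable element subfamilies. Groups and replicate numbers came from the labels. The members and the gene lists were chosen with earlier results of these data known.

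filterByExpr with a minimum count of 10 and a minimum total of 15 left 15313 genes and 932 subfamilies. Counts were scaled by TMM and fitted with edgeR 4.0.16 (R 4.3.3), 1 coefficient per condition over all 8 libraries, and p-values were adjusted by Benjamini-Hochberg over genes and subfamilies. Replicate deviations correlated at between 0.285 and 0.663 (median 0.587) in all 6 pairs of conditions, so the numbers were taken to pair the libraries. The fit with the replicate block is given where it changes a call. The correlation was lowest for WT with Setdb1 KO (0.285), then for WT with the combined condition (0.351). The pairing was thus weakest in Setdb1 KO against WT, where the block raised the members called from 1 to 42. The methods call them biological replicates and the labels name no shared culture or day, so p-values measure only the spread between these libraries. Alternatives included DESeq2 1.42.0, other scalings and filters, and leaving out each library. The fits were tested on simulated data.

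Named genes were the 10 lowest ratios, the 5 highest WT levels, up to 6 called per comparison, the 3 on either side of the threshold, all members in a gene list, up to 4 per role group by WT level, and Setdb1. Other members named from the role groups were taken after their values were seen. Positions came from GENCODE M21 and promoters from RefSeq (GRCm38.p6), the most upstream entry per gene, found for 201 of 284 members. Some members met the naming rule and are not reported here.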

Additional observations from a re-analysis of the deposited data

Results flagged for a closer look

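The effects of the single treatments differed in 6 falling genes by the test of Setdb1 KO against UNC0642, adjusted over all genes and subfamilies, in edgeR's fit with the replicate block. The log2 differences were -2.39 for Sema3e, -2.04 for Sfrp1, -1.70 for Arhgap30, -1.65 for Fam81a, -1.55 for Sorl1 and -1.55 for Ly75, all lower in both Setdb1 KO libraries than in both UNC0642 libraries. Without the block the adjusted p of these genes was between 0.0709 and 0.5196 in edgeR's quasi-likelihood test. Arhgap30 also had both UNC0642 libraries above and both Setdb1 KO libraries below both WT libraries. With 2 libraries per condition, no library could be tested as lying apart from its group.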

How the results depend on the processing

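The number of falling genes was 122 at a ratio of 0.25, 944 at 0.5 and 166 with a WT minimum of 10 CPM, and between 891 and 975 when 1 replicate pair was used. Members called in Setdb1 KO against WT numbered 42 with the replicate block, 18 in DESeq2, 116 in DESeq2 with a block, 2 in edgeR on only the 4 libraries compared, and 12 with no filter but a total above 0, and between 0 and 2 without 1 library. Sema3e was not called when any 1 of the Setdb1 KO or WT libraries was left out, which leaves a lone library assumed to vary like the other groups, at log2 fold changes between -3.22 and -3.03. In Setdb1 KO against UNC0642 the block called 6, DESeq2 3, DESeq2 with a block 17 and no filter 2. In UNC0642 against WT only DESeq2 with a block called members, 15. In these 3 comparisons no call without the block was lost with it.

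The median in Setdb1 KO against WT was between -1.72 and -0.82 without 1 library, and against UNC0642 between -0.91 and -0.00067, both ends set by the Setdb1 KO replicates; all other medians moved by less than the spread between replicates (0.42 on the log2 scale). Hypoxia and glycolysis genes lower in the combined condition numbered 17 with the block, 11 with no filter, 0 by library totals and between 0 and 6 without 1 library. Cholesterol genes lower numbered 17 with the block, 8 with no filter and between 0 and 3 without 1 library in the combined condition. In Setdb1 KO they numbered 9 with the block, 3 in DESeq2, 11 in DESeq2 with a block and 1 with no filter, and in UNC0642 7 in DESeq2 with a block. These list counts, DESeq2 with a block and the motifs ACGTG and TCACNCCAC were added after seeing the data. The cause of these shifts was not tested. Over the named genes and all alternatives, a call was gained 84 times and lost 4 times in Setdb1 KO against WT, gained 21 times in Setdb1 KO against UNC0642 and 9 times in UNC0642 against WT. The smallest count of a member in a WT library was 36, and low members are the least precise.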
